A study of Homo sapiens with 12 samples.

Results

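Transcript levels of 7 metallothioneins and 3 zinc response genes were examined in K562 cells. The 10 members were taken by symbol from the 28278 genes of the count table, all 10 were found there, and they are the metallothioneins MT1E, MT1F, MT1G, MT1H, MT1M, MT1X and MT2A, the zinc sensor MTF1, the zinc exporter SLC30A1 and the zinc importer SLC39A10. K562 is a human erythroleukaemia line that makes haemoglobin on exposure to agents such as butyrate. The study compared wild-type K562 cells (WT) with cells in which HRG1 had been knocked out (KO), HRG1 being the haem transporter encoded by SLC48A1. The 4 groups of 3 libraries were untreated WT, WT with sodium butyrate, untreated KO and KO with sodium butyrate. Butyrate was used at 0.75 mM, added 24 h after plating and again 48 h later, and all cells were harvested 6 h after the later addition, while the series design speaks of day 8 of differentiation. All groups were grown in the same serum-containing medium. How the knockout was made, how many clones it covers and whether the 3 libraries of a group were separate cultures are not given in the sources used here, so p-values measure only the spread between these libraries, which may be technical.

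Metallothioneins are small, cysteine-rich proteins that bind zinc, copper and cadmium and buffer free zinc in the cell. MTF1 is a zinc finger transcription factor that senses free zinc, moves to the nucleus and binds metal response elements in the promoters of metallothionein genes and of SLC30A1, which exports zinc across the plasma membrane. SLC39A10 carries zinc into the cell, and MTF1 has been described as a repressor of it when zinc is plentiful.

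Promoter windows are shown because metallothionein genes and SLC30A1 are textbook targets of MTF1. Sequences were taken from RefSeq (GRCh38.p14), whose promoter table held 6 of the 10 members, and the 250 bases before each start were searched on both strands for the core of the metal response element, written as TGCACNC or TGCGCNC. The following windows carry the matches, in capitals, of the most abundant metallothionein MT2A (chr16:56608334-56608583, plus strand), of the next most abundant MT1X (chr16:56682220-56682469, plus strand), of MT1H, which was nearly silent (chr16:56669564-56669813, plus strand), and of SLC30A1 (chr1:211579162-211579411, minus strand).
MT2A promoter: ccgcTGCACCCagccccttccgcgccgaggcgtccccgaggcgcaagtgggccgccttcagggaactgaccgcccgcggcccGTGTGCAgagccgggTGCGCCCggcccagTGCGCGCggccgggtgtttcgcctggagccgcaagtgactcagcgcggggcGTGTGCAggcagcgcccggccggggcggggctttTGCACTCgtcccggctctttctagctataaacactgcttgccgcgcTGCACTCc
MT1X promoter: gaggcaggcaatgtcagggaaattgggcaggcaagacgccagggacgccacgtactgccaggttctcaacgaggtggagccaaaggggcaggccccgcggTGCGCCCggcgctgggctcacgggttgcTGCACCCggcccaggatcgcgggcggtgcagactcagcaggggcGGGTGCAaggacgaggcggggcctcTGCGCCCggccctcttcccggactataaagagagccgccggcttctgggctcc
MT1H promoter: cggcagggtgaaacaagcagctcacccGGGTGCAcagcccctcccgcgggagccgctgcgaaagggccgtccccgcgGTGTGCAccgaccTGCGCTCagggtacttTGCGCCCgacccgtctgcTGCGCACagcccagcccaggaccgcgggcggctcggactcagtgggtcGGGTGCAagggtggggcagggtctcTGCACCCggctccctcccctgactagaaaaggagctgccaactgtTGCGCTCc
SLC30A1 promoter: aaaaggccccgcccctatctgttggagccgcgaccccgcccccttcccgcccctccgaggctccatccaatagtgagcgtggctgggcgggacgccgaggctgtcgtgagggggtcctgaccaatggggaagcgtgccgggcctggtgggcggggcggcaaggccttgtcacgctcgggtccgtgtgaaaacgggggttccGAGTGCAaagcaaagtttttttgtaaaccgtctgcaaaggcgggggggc
The MT2A window held 7 matches, 5 on the strand of the gene and 2 on the other, and 0.0313% of the 35116 windows of the table held as many. The MT1X window held 4 matches (0.370% of windows held as many) and the MT1H window 8 (0.0171%). The SLC30A1 window held 1 match (24.8% of windows held 1 or more), and the MTF1 window and both windows of SLC39A10 held 0. A match is a description of these letters and not a measured binding site.

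The 7 metallothionein members lie in a row on chromosome 16, between positions 56608584 and 56684196 (75.61 kb, GRCh38.p14), and their coding sequences are near copies of each other. The coding sequences of the leading pair are shown because they set how well reads can be told apart, with the 14 bases of MT1X that differ from MT2A in capitals.
MT2A coding sequence: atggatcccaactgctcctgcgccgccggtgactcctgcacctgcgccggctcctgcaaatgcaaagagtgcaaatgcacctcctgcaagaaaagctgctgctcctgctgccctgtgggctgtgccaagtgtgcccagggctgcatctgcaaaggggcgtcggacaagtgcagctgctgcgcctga
MT1X coding sequence: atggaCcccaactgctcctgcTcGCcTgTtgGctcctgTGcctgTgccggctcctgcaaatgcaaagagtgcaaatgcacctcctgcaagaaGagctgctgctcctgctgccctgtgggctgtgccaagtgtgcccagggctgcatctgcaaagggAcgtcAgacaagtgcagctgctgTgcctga
Each of the 7 coding sequences was 186 bases long, and pairwise identity was 88.71% to 95.16% over 21 pairs. Of the 50-base windows of the transcripts (GENCODE), 45.1% of those of MT1X occurred in another gene as well, against 4.89% for MT2A, 3.59% for MT1F and 20.2% for MT1G. Of the 100-base windows, 19.1% of those of MT1X occurred in another gene, which lay outside the 7, and 0% of those of MT2A, MT1F and MT1G. How far reads can be told apart thus depends on their length. The split of counts among single metallothioneins is therefore uncertain, and the sum of the 7 is given beside them. The sum does not recover reads shared with genes outside the 7.

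Library totals ran from 19963594 to 30348538 counts, with the 4 libraries numbered 3 between 28717216 and 30348538. Levels are given as CPM, the count of a gene scaled to the size of its library with edgeR's TMM factors, and 3 counts, taken as the detection limit, equalled 0.0953 to 0.162 CPM, which covers counting error only. SLC48A1, the targeted gene, stood at 58.9 to 83.8 CPM in the 6 WT libraries and at 2.94 to 10.1 CPM in the 6 KO libraries. All 10 erythroid markers exceeded 1 CPM in every library, with a summed level of 8384 to 64199 CPM in WT and 3854 to 7330 CPM in KO, while the T lymphocyte, B lymphocyte and monocyte markers summed to at most 29.1 CPM and PF4, MS4A1 and LUM were at 0 throughout. Fibroblast markers summed to 2.35 to 5.21 CPM in untreated and 44.0 to 157 CPM in butyrate libraries, megakaryocyte markers to at most 54.5 CPM in untreated and 76.8 to 211 CPM in butyrate libraries, and epithelial markers to 323 to 795 CPM. The part of these shifts in the results was not tested. In bulk RNA, fewer expressing cells and less RNA per cell cannot be told apart.

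Metallothionein transcripts were rare in most libraries and abundant in 2 of them, the WT libraries numbered 3. Numbers 1 to 3 are those of the sample titles. The summed level of the 7 members was 4.55, 1.72 and 128 CPM in untreated WT libraries 1, 2 and 3, and 9.85, 8.92 and 387 CPM in butyrate-treated WT libraries 1, 2 and 3. It was 27.2, 4.57 and 31.6 CPM in untreated KO and 37.3, 17.2 and 42.9 CPM in treated KO. In both WT groups library 3 was far above the other libraries, whereas in the KO groups libraries 1 and 3 were close together and library 2 was lowest. Of the 20706 metallothionein counts of all 12 libraries, 15972 (77.1%) were in the WT libraries numbered 3.

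MT2A, the metallothionein most widely expressed in human tissues, contributed 66.4% of all metallothionein counts. Its level was 3.36, 1.07 and 93.2 CPM in untreated WT, 5.91, 7.04 and 269 CPM in treated WT, 9.31, 1.57 and 18.4 CPM in untreated KO, and 17.8, 7.27 and 25.1 CPM in treated KO. The high values were again WT library 3 in both treatments, and the 4 groups overlapped. MT1X, which contributed 25.2% of counts, was at 1.08, 0.464 and 26.3 CPM in untreated WT, 3.47, 1.41 and 87.5 CPM in treated WT, 14.3, 2.43 and 10.9 CPM in untreated KO, and 13.8, 6.31 and 13.2 CPM in treated KO. Per kilobase of transcript, mean MT2A levels were 41.4, 120, 12.4 and 21.3 CPM per kb in untreated WT, treated WT, untreated KO and treated KO, and mean MT1X levels were 20.6, 68.4, 20.4 and 24.7 CPM per kb. On that scale MT2A had the higher mean in the WT groups and MT1X in the KO groups. In shares of each library's metallothionein counts, MT2A made up 60.0% to 78.9% in the 6 WT libraries and 34.3% to 58.5% in the 6 KO libraries. The nearest values were 60.0% in treated WT library 1, of 190 counts, and 58.5% in treated KO library 3. The shares rest on the assignment of reads between near copies and on as few as 37 metallothionein counts in a library. Their difference between the genotypes was not tested.

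**Figure D1:**
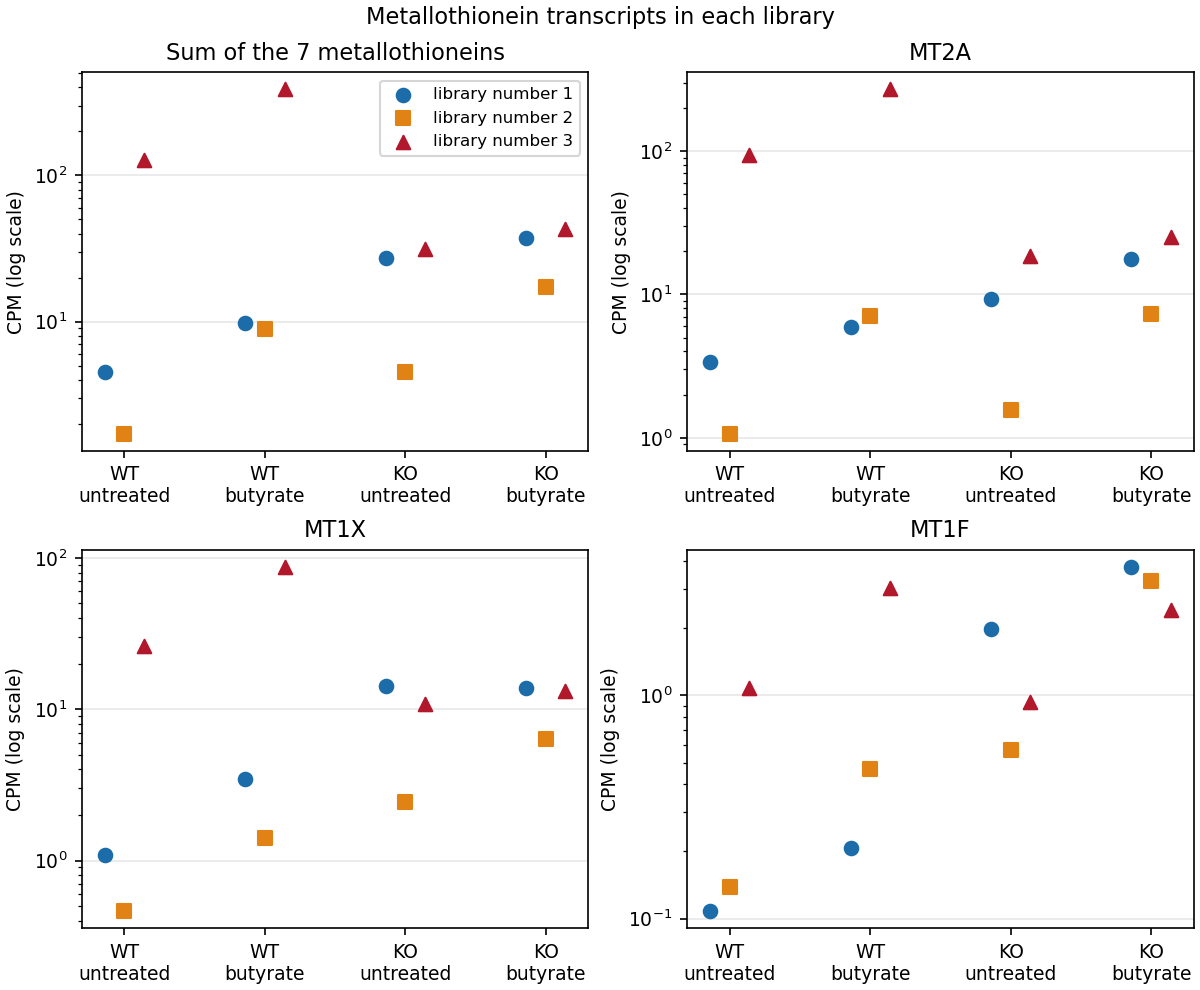
Level of the metallothionein sum, MT2A, MT1X and MT1F in each of the 12 libraries (CPM, log scale), by group, with colour and shape giving the library number. WT library 3 stands far above WT libraries 1 and 2 in both treatments (128 against 4.55 and 1.72 CPM for the untreated sum), and no such gap is seen between KO libraries 1 and 3.

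MT1F and MT1G, metallothioneins of the same cluster, were lower. MT1F was at 0.108, 0.139 and 1.08 CPM in untreated WT, 0.207, 0.469 and 3.02 CPM in treated WT, 1.98, 0.571 and 0.936 CPM in untreated KO, and 3.77, 3.24 and 2.42 CPM in treated KO. MT1F differed from the others in that the highest group mean was treated KO (3.14 ± 0.680 CPM, SD, n = 3). MT1G had 206 counts in untreated and 736 counts in treated WT library 3, 5 counts or fewer in the other 4 WT libraries, and 0 to 56 counts in the 6 KO libraries. The remaining members had few counts or 0, MT1E with 88 counts in treated WT library 3 and 0 to 20 counts elsewhere, MT1H with 22 counts in treated WT library 3 and 0 in the other 11, and MT1M with 0 in all 12. MT1E, MT1H and MT1M did not pass the filter on low counts, so 4 of the 7 metallothioneins and 7 of the 10 members were tested. Of 14 other metallothionein genes and pseudogenes searched for, 9 were in the table and 0 passed the filter. MT1A reached 14 counts and MT4 reached 15 counts in a library, MT1L reached 6, MT1B had 2 counts in untreated WT library 3 alone, and MT3, MT1DP, MT1HL1, MT1IP and MT1JP were at 0 in all 12 libraries.

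The gap between WT library 3 and the other WT libraries was large on the scale of all genes. The metallothionein sum in library 3 was 28.1 times library 1 and 74.5 times library 2 in untreated WT, and 39.3 and 43.4 times in treated WT. In untreated KO the same ratios were 1.16 and 6.93, and in treated KO 1.15 and 2.49. Ranked by the smallest log2 gap of library 3 over the next WT library in both WT groups, MT1G was rank 1 of 15805 genes (6.36), MT2A rank 3 (4.78), MT1X rank 4 (4.57) and MT1F rank 19 (2.63). For these log2 levels 0.5 counts were added to each gene in each library. MT1G had 0 to 5 counts in WT libraries 1 and 2, so its gap and its spread depend on that addition. Only 12 genes had a gap of 3 or more, the other 9 being LY6G6F, SLC6A13, ZNF469, MGAM, HLA-DPA1, CORIN, TRIM71, MUC20 and ELF3, named here because of their values. The spread within groups, pooled over the 4 groups on the log2 scale, was 2.50 for MT2A, 2.31 for MT1X and 3.77 for MT1G, against a median of 0.443 over all tested genes. MTF1, SLC30A1 and SLC39A10 had no such gap, with pooled spreads of 0.143, 0.391 and 0.336. The share of counts in ribosomal RNA genes was lowest in library 3 of every group (0.724% to 1.00%, against 1.25% to 6.42% in libraries 1 and 2), also in the KO groups, where the metallothioneins of library 3 did not stand apart from library 1. The part of this share and of sequencing depth in the metallothionein values was not tested.

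Metallothionein transcripts were more abundant with butyrate within every library number, but by less than the spread between libraries. Within each library number, the treated library had more metallothionein transcripts than the untreated one in 6 of 6 pairs. The fold was 2.16, 5.14 and 3.03 in WT for numbers 1, 2 and 3, and 1.37, 3.76 and 1.36 in KO. MT2A and MT1F were higher with butyrate in 3 of 3 WT pairs and 3 of 3 KO pairs, and MT1X in 3 of 3 WT and 2 of 3 KO pairs. Of all tested genes, 22.2% were higher in each of the 3 WT pairs and 25.9% in each of the 3 KO pairs. No metallothionein passed the test. With edgeR's quasi-likelihood test and Benjamini-Hochberg adjustment over all tested genes, the log2 fold change of the sum was 1.59 ± 1.50 (SE, adjusted p = 0.633) in WT and 0.62 ± 1.48 (adjusted p = 0.866) in KO. For single genes in WT the log2 fold changes were 1.53 for MT2A, 1.72 for MT1X, 1.44 for MT1F and 1.74 for MT1G, with adjusted p from 0.502 to 0.698. In KO they were 0.77, 0.27, 1.44 and 0.39, with adjusted p from 0.454 to 0.949. MT1F in KO was the only tested metallothionein with every treated library above every untreated one, a pattern seen in 12.6% of all tested genes in KO. With the library number as a block the sum gave 1.64 ± 0.86 in WT (adjusted p = 0.261) and 1.04 ± 0.87 in KO (adjusted p = 0.471), and no metallothionein passed either. Leaving out 1 library of the WT pair numbered 3 moved the WT value, to -2.27 without treated WT library 3 and 5.45 without untreated WT library 3. Without all libraries numbered 3, an alternative chosen after their values were seen, it was 1.59 ± 0.81 (SE, edgeR, adjusted p = 0.545), close to the value with them. An exact permutation test of 3 against 3 libraries allows no p below 0.1, so it could not pass the threshold and is not read here.

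The genotype comparison of metallothioneins had no common direction. Against a background of 32.6% (untreated) and 31.5% (butyrate) of all tested genes that were higher in KO in each of the 3 library numbers, no tested metallothionein was. In libraries numbered 1 and 2 the sum was higher in KO, by 5.95 and 2.64 times untreated and by 3.77 and 1.93 times with butyrate. In libraries numbered 3 it was lower in KO, by 4.04 times untreated and 9.01 times with butyrate. By group means the order was untreated KO (21.1 ± 14.5 CPM), treated KO (32.5 ± 13.5), untreated WT (44.7 ± 72.0) and treated WT (135 ± 218, SD, n = 3 each), and all neighbours in this order overlapped. The fitted log2 fold change of KO against WT was -1.08 ± 1.49 (SE, edgeR, adjusted p = 0.660) untreated and -2.06 ± 1.52 (adjusted p = 0.397) with butyrate. Without the 4 libraries numbered 3, an alternative chosen after their values were seen, it was 2.31 and 1.53. With the library number as a block and all 12 libraries it was 0.66 ± 0.96 (adjusted p = 0.644) and 0.06 ± 0.92 (adjusted p = 0.971), so the sign depended both on those libraries and on the use of the pairing. The mean log2 level, which weights libraries equally, differed by 0.65 untreated and -0.10 treated. None of MT2A, MT1X, MT1F and MT1G passed the test in either genotype comparison (adjusted p from 0.319 to 0.993). The test of whether butyrate acted differently in the 2 genotypes gave a log2 difference of -0.98 ± 2.08 for the sum (SE, edgeR, adjusted p = 1.00).

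**Figure D2:**
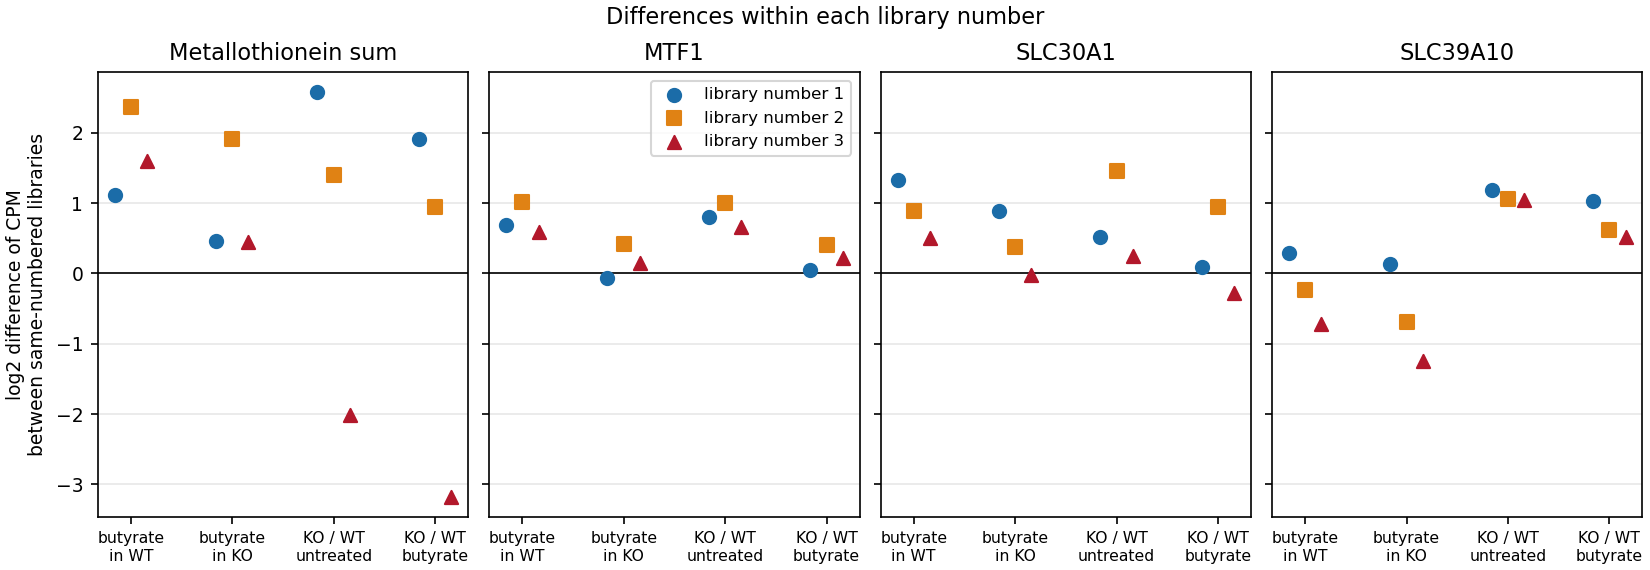
Log2 difference of CPM between same-numbered libraries, for butyrate against untreated in WT and in KO and for KO against WT untreated and with butyrate, 1 point per library number. All 6 treatment differences of the metallothionein sum are above 0, while its genotype differences are above 0 for numbers 1 and 2 and below 0 for number 3 (-2.01 and -3.17). MTF1 and SLC39A10 are above 0 for every number in both genotype comparisons.

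The tested metallothioneins had like profiles over the libraries, of which the zinc sensor and transporters shared little after group means were subtracted. Over the 12 libraries, which share genotype, treatment and library effects, Pearson's r of log2 CPM ran from 0.641 (MT1F and MT2A) to 0.930 (MT1G and MT1X) among the 4 tested metallothioneins, with 0.914 for MT1X and MT2A. Between these 4 and the 3 zinc genes it ran from -0.126 (MT2A and SLC39A10) to 0.656 (MT1F and MTF1), with 0.647 for MT1F and SLC30A1 and 0.542 for MT1X and SLC30A1. After subtracting group means r was 0.832 (MT1F and MT1G) to 0.971 (MT1X and MT2A) among the metallothioneins and -0.04 (MT1G and MTF1) to 0.422 (MT1X and SLC30A1) between them and the zinc genes. With the metallothioneins, r of these deviations was at most 0.119 for MTF1 and 0.151 for SLC39A10, and 0.281 to 0.422 for SLC30A1. MTF1 and SLC30A1 had r = 0.807, and 0.330 after subtracting group means. The part of reads shared between near copies in these values was not tested.

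MTF1 transcripts were lower in untreated WT than in every other group. The level was 12.1, 9.60 and 12.1 CPM in untreated WT, 19.5, 19.5 and 18.2 CPM in treated WT, 21.0, 19.3 and 19.1 CPM in untreated KO, and 20.1, 25.8 and 21.1 CPM in treated KO. No untreated WT library overlapped with any other group, and the other 3 groups lay within 18.2 to 25.8 CPM. The share of all genes with untreated WT apart from all 3 other groups was not counted, and the shares that follow are for pairs of groups. Of all tested genes, 22.2% were higher without overlap in untreated KO against untreated WT, and 32.6% were higher in each library number. MTF1 rose in untreated KO against untreated WT by 0.81 ± 0.21 on the log2 scale (SE, 1.76-fold, edgeR, adjusted p = 0.0130), and it was higher in 3 of 3 library numbers. It and SLC39A10 were the 2 of 7 tested members called in this comparison, in which 22.6% of all tested genes were called, 11.7% of the tested genes as higher and 10.9% as lower. SLC30A1 with them had an unadjusted p under 0.05, which 34.6% of tested genes had. The call did not hold without untreated WT library 2 (adjusted p = 0.0599) or without the 4 libraries numbered 3 (log2 fold change 0.87, adjusted p = 0.139). With butyrate in WT the log2 fold change was 0.76 ± 0.21, higher in 3 of 3 numbers and with no overlap, as for 11.3% of tested genes. Its adjusted p was 0.0773 in edgeR's test, 0.0394 with the library number as a block and 0.00160 with DESeq2, so the call depended on the test. Under edgeR 0 of 7 tested members were called for butyrate in WT (2.35% of all genes were called, 1.8% as higher and 0.55% as lower), and 2, MTF1 and SLC30A1, had an unadjusted p under 0.05 (18% of genes). In KO the log2 fold change of MTF1 with butyrate was 0.17 (adjusted p = 0.693). KO against WT with butyrate gave 0.23 (adjusted p = 0.495), where the groups did not overlap, as for 17.9% of tested genes in that direction. The difference between the butyrate responses of the 2 genotypes was -0.59 ± 0.29 (SE, edgeR, unadjusted p = 0.0646, adjusted p = 1.00).

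SLC30A1, the zinc exporter that MTF1 activates, had the same order of group means as MT1F, from untreated WT through untreated KO and treated WT to treated KO. It stood at 30.3, 25.4 and 48.7 CPM in untreated WT, 76.0, 46.9 and 69.4 CPM in treated WT, 43.5, 69.7 and 57.8 CPM in untreated KO, and 80.6, 90.5 and 56.9 CPM in treated KO. All neighbouring groups overlapped. In untreated WT library 3 was the highest, but in treated WT it lay between libraries 1 and 2, unlike the metallothioneins. With butyrate the log2 fold change was 0.88 ± 0.29 in WT (SE, edgeR, adjusted p = 0.139, higher in 3 of 3 numbers) and 0.41 in KO (adjusted p = 0.465, higher in 2 of 3). KO against WT gave 0.71 ± 0.29 untreated (adjusted p = 0.101, higher in 3 of 3) and 0.25 treated (adjusted p = 0.621, higher in 2 of 3). Of all tested genes, 22.2% were higher with butyrate in each WT pair, and 32.6% were higher in untreated KO in each library number. Without untreated WT library 3 the untreated genotype difference was 1.02 and passed the test (adjusted p = 0.0419).

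SLC39A10, the zinc importer, was about 2 times as abundant in untreated KO as in untreated WT. Its level was 46.5, 53.1 and 66.8 CPM in untreated WT, 57.0, 44.9 and 40.6 CPM in treated WT, 106, 111 and 137 CPM in untreated KO, and 117, 68.6 and 57.9 CPM in treated KO. Every untreated KO library was above every WT library, and treated KO library 1 was as high as untreated KO while treated KO libraries 2 and 3 were close to WT. The share of all genes with untreated KO above both WT groups was not counted, and the shares that follow are for pairs of groups. Among all tested genes, 22.2% were higher without overlap in untreated KO against untreated WT, and 32.6% were higher in each library number. With butyrate these shares were 17.9% and 31.5%. SLC39A10 rose in untreated KO by 1.09 ± 0.26 on the log2 scale (SE, 2.13-fold, edgeR, adjusted p = 0.0103, higher in 3 of 3 numbers). It was called in each of the 12 fits that left out a library (log2 fold change 0.93 to 1.23) and missed the threshold without the 4 libraries numbered 3 (1.09, adjusted p = 0.0589). With butyrate KO against WT gave 0.77 ± 0.26 (adjusted p = 0.0588, higher in 3 of 3 numbers, no overlap), which passed with the library number as a block (adjusted p = 0.0389), with DESeq2 (0.0358) and with scaling by library size alone (0.0318). edgeR called 0 of 7 tested members in that comparison, where 19% of all genes were called, 10.1% as higher and 8.89% as lower, and SLC39A10 was the 1 member with an unadjusted p under 0.05 (31.6% of genes). Butyrate itself gave -0.22 in WT (adjusted p = 0.714) and -0.54 in KO (adjusted p = 0.273), with 1 pair higher and 2 lower in each genotype. Without the libraries numbered 1 SLC39A10 fell by 0.99 in KO (adjusted p = 0.0143). Of the 7 tested members edgeR called 0 for butyrate in KO, where 3.4% of all genes were called, 2.8% as higher and 0.595% as lower, and 0 members had an unadjusted p under 0.05, which 19.8% of genes had. In the difference of the butyrate responses 0 members and 0% of all genes were called by edgeR, with 0 members and 4.16% of genes at an unadjusted p under 0.05, and DESeq2 called 0 members and 86 genes.

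**Figure D3:**
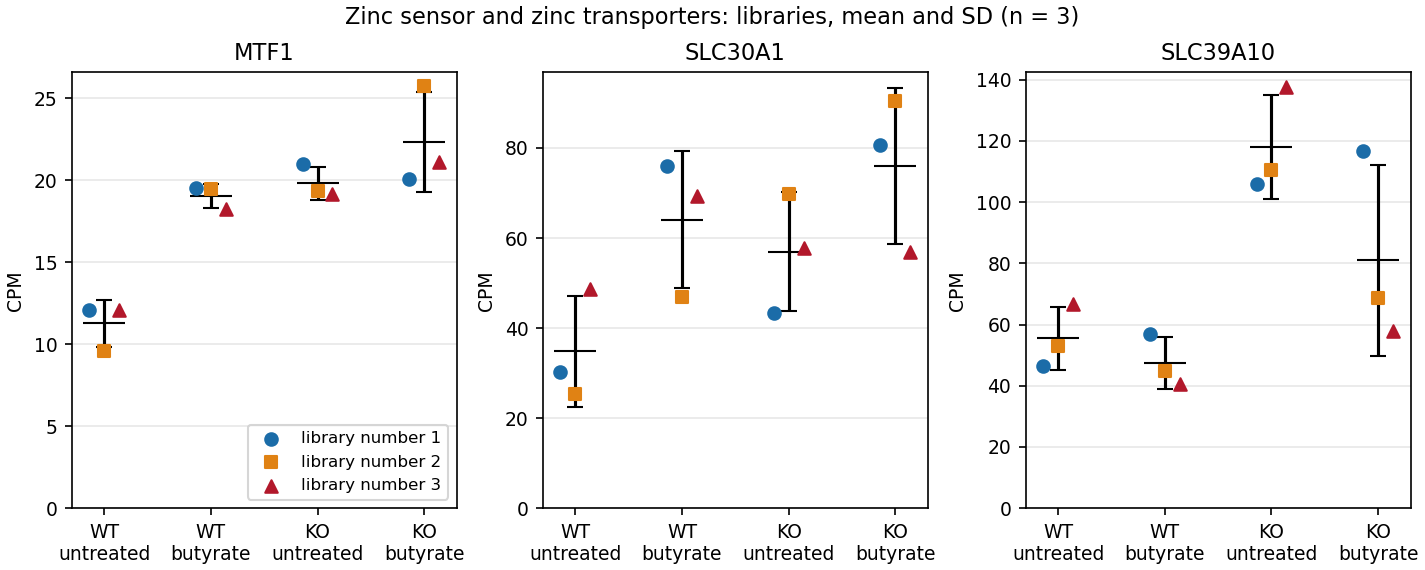
Levels of MTF1, SLC30A1 and SLC39A10 in the 12 libraries (CPM, axes from 0), with the group mean (long bar) and SD (error bar, n = 3). Untreated WT libraries of MTF1 lie at 9.60 to 12.1 CPM under all others, and the 3 untreated KO libraries of SLC39A10 lie at 106 to 137 CPM above all WT libraries.

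On the scale of length, mean levels in untreated WT were 1.41 CPM per kb for MTF1, 6.36 for SLC30A1 and 10.2 for SLC39A10. In untreated KO the same means were 2.48, 10.4 and 21.7 CPM per kb. MTF1 was the scarcest of the 3 zinc genes in both.

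The other zinc transporters were counted from lists of exporters (the SLC30 family and TMEM163) and importers (the SLC39 family). Of 11 tested exporters, 1 was higher and 1 lower in untreated KO, 1 was higher in treated KO, and 1 was higher with butyrate in each genotype. Over all genes 11.7% were higher and 10.9% lower in untreated KO, 10.1% were higher in treated KO, and 1.8% and 2.8% were higher with butyrate in WT and KO, so the genotype counts were near the background. SLC30A2, which loads zinc into vesicles, was at 0, 0.186 and 0.370 CPM in untreated WT and 4.55, 5.28 and 5.42 CPM in untreated KO, a log2 fold change of 4.65 ± 0.73 (SE, edgeR, adjusted p = 6.40e-04), and with butyrate KO exceeded WT by 3.21 (adjusted p = 0.00456). SLC30A3, the transporter known for loading zinc into synaptic vesicles, rose with butyrate by 1.84 in WT (adjusted p = 0.0357) and by 3.13 in KO (adjusted p = 0.00373), and fell by 1.28 in untreated KO against WT (adjusted p = 0.0363). Its levels were 7.10 to 11.5 CPM in untreated WT, 15.2 to 47.1 in treated WT, 2.94 to 5.25 in untreated KO and 28.5 to 43.5 in treated KO. The groups compared for these calls of SLC30A2 and SLC30A3 did not overlap. Without overlap, 22.2% of all tested genes were higher and 20.2% lower in untreated KO against WT, and 17.9% were higher in treated KO. With butyrate, 11.3% were higher without overlap in WT and 12.6% in KO. The median log2 fold change of the exporters was 0.24 and 0.37 with butyrate in WT and KO, and 0.34 and 0.09 for KO against WT untreated and treated, beside 0.02, 0, 0.02 and -0.00 over all tested genes.

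Of 11 tested importers, 3 were higher and 0 lower in untreated KO, and 3 were higher and 0 lower in treated KO, beside 11.7% and 10.1% of all genes called higher. In untreated KO these were SLC39A10, SLC39A9 (0.90, adjusted p = 0.0102) and SLC39A8 (1.84, adjusted p = 0.00205), in edgeR's test. SLC39A8 imports zinc and manganese at the cell surface, and it stood at 38.1, 56.0 and 47.5 CPM in untreated WT and 214, 146 and 149 CPM in untreated KO. In treated KO the 3 were SLC39A9 (0.68, adjusted p = 0.0426), SLC39A7 (0.77, adjusted p = 0.0137), which releases zinc from the endoplasmic reticulum, and SLC39A14 (0.96, adjusted p = 0.0154), an importer of zinc, iron and manganese. SLC39A8 in treated KO missed the threshold (1.02, adjusted p = 0.0511). SLC39A14 was also the importer called for butyrate, where it fell by 1.22 in WT (adjusted p = 0.0259), and in KO its value was -0.90 (adjusted p = 0.0619). Over all genes 0.55% were called lower with butyrate in WT and 0.595% in KO. The median over importers was -0.22 and -0.05 with butyrate in WT and KO and 0.45 and 0.47 for KO against WT untreated and treated.

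**Figure D4:**
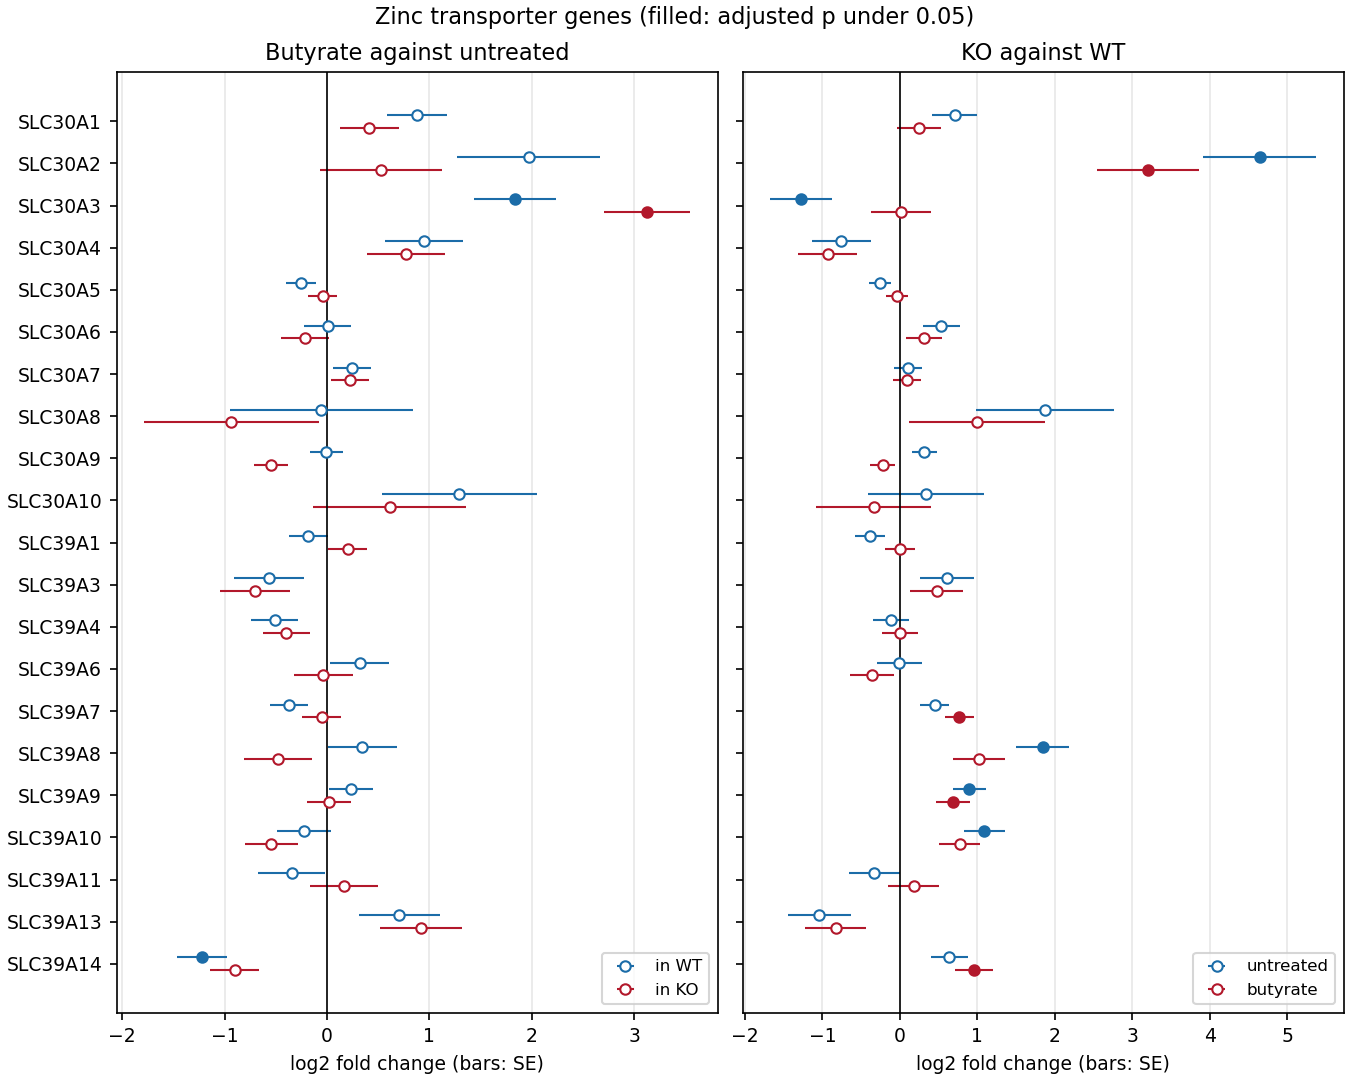
Log2 fold changes with SE bars of 10 zinc exporters and 11 zinc importers, butyrate against untreated at left and KO against WT at right, filled where edgeR's adjusted p is under 0.05. SLC30A3 is filled for butyrate in both genotypes (1.84 and 3.13), and SLC39A8, SLC39A9 and SLC39A10 are filled for untreated KO against WT.

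Genes of copper handling and of the wider metal response were counted from lists as well. Of 10 tested copper genes, 2 were higher in untreated KO, the copper pumps ATP7A (1.02, adjusted p = 0.0174) and ATP7B (1.29, adjusted p = 0.0282), and 1 in treated KO, the copper chaperone ATOX1 (1.04, adjusted p = 0.00663), with 0 lower and 0 called for butyrate (edgeR), beside 11.7% and 10.1% of all genes called higher. Of 15 tested genes of the heavy metal and oxidant response, 1 was higher and 1 lower in untreated KO, the glutathione synthesis subunits GCLC (1.09, adjusted p = 0.00184) and GCLM (-0.88, adjusted p = 0.00770), beside 11.7% and 10.9% of all genes. GCLM was also lower in treated KO (-0.78, adjusted p = 0.0171), together with the heat shock cochaperone DNAJB1 (-1.06, adjusted p = 0.00601). DNAJB1 rose with butyrate in WT (1.35, adjusted p = 0.0130) and in KO (0.91, adjusted p = 0.0477), and the cystine transporter SLC7A11 fell by 2.91 with butyrate in KO (adjusted p = 0.0200). Over all genes 8.89% were called lower in treated KO, and 2.35% and 3.4% were called with butyrate in WT and KO. HMOX1, the haem oxygenase that also responds to metals, was listed at 0 to 0.230 CPM and was not tested.

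Glucocorticoids are the other classical inducers of MT2A. Of 8 tested genes of that response, 2 were higher and 1 lower in KO against WT in both treatments (edgeR), beside 22.6% (untreated) and 19% (treated) of all genes called in either direction. The glucocorticoid receptor NR3C1 was lower (-1.86, adjusted p = 0.00162 untreated, and -1.63, adjusted p = 0.00459 treated), and its targets TSC22D3 (6.51-fold and 4.47-fold, adjusted p = 0.00681 and 0.0227) and ZBTB16 (log2 fold changes 3.46 and 2.38, adjusted p = 1.58e-04 and 9.52e-04) were higher. The other 5 listed genes were not called in either treatment. Of the 8, 3 had values above 0 and 5 below 0 in untreated KO against WT, and 5 above and 3 below in treated KO. ZBTB16 was also the 1 of 8 called with butyrate, at 4.33 in WT and 3.25 in KO (adjusted p = 0.00243 and 0.00291). Over all genes 2.35% were called with butyrate in WT and 3.4% in KO.

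The genes beside the metallothionein cluster were counted as well, 11 of 12 being tested. Over all genes 11.7% were called higher and 10.9% lower in untreated KO, and 10.1% and 8.89% in treated KO. With butyrate 2.35% of all genes were called in WT and 3.4% in KO, 2.8% as higher in KO. The immediate neighbours BBS2 and NUP93 were not called in any comparison, with log2 fold changes of -0.46 and 0.00 in untreated KO and -0.91 and 0.18 in treated KO (edgeR, adjusted p from 0.154 to 0.996). Untreated, 2 neighbours were higher in KO, NLRC5 (5.54, adjusted p = 7.88e-05) and CETP (adjusted p = 0.0165), the latter at 0 in the 3 untreated WT libraries and at 0.0535 to 0.802 CPM in untreated KO. In treated KO, GNAO1 (3.58, adjusted p = 0.0168), NLRC5 (6.64, adjusted p = 2.03e-05) and CETP (adjusted p = 0.00806, at most 0.0318 CPM in WT and 0.965 to 1.49 CPM in KO) were higher and NUDT21 was lower (-0.58, adjusted p = 0.0451). With butyrate, 0 neighbours were called in WT and 2 were higher in KO, GNAO1 (3.81, adjusted p = 0.0448) and NLRC5 (2.37, adjusted p = 0.0278). In the difference of the butyrate responses, 0 genes of any of these lists were called.

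The genes whose levels were most like the metallothionein sum over the 12 libraries were PGK1 (r = 0.896), LIX1L (0.867), PCSK5 (0.838), MYO1A (0.824) and PARD3-AS1 (0.809), by Pearson's r of log2 CPM. After subtracting group means they were PGK1 (r = 0.979), MUC20 (0.950), PRXL2A (0.926), NMRK2 (0.918) and MGAM (0.916). These were the highest of the 15805 tested genes once the 7 tested members were set aside, and are a description. In the WT libraries PRXL2A was at 0 to 0.222 CPM and NMRK2 at 0 to 0.168 CPM, near the detection limit. PARD3-AS1 was at 0 to 0.841 CPM there and PCSK5 at 0 to 2.48 CPM, so these values of r rest partly on few counts. PGK1, a glycolytic enzyme, stood at 415, 291 and 728 CPM in untreated WT, 367, 307 and 712 CPM in treated WT, 496, 362 and 470 CPM in untreated KO, and 430, 393 and 437 CPM in treated KO. WT library 3 was the highest and library 2 the lowest in both WT groups, as for the metallothionein sum in each.

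**Figure D5:**
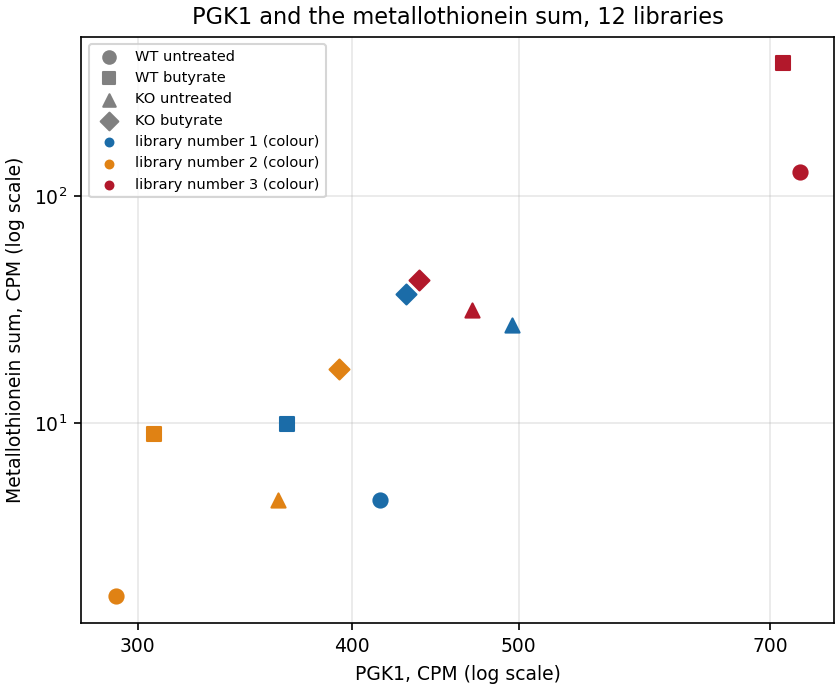
PGK1 level (CPM, log scale) against the metallothionein sum (CPM, log scale) in the 12 libraries, with shape for the group and colour for the library number. The WT libraries numbered 3 lie apart at the upper right, at 728 and 712 CPM of PGK1.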

How the data were processed

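RNA was sequenced from 12 K562 libraries. The authors deposited raw counts by gene symbol in 1 table, and the submitters' processing notes name hg38, FastQC 0.12.1 and STAR 2.7.11b. The counting tool, the annotation and the use of strand are not given in the sources used here. Groups and library numbers came from the sample titles. The 28278 genes were filtered with edgeR's filterByExpr (minimum count 10), leaving 15805, and 6319 genes had 0 counts in every library. The counts were tested with edgeR 4.0.16 (TMM, quasi-likelihood, all 4 groups in 1 fit, R 4.3.3), and p-values were Benjamini-Hochberg adjusted over all tested genes with a threshold of 0.05. Metallothionein counts were summed before the fit. SE was derived from the fold change and its F statistic. Replicates differed beyond sampling noise (smallest chi-square per degree of freedom 37.2). DESeq2 1.42.0, other scalings and filters, a replicate block and left-out libraries were alternatives. DESeq2 gave no p-value for MT1X, MT2A and the metallothionein sum. Same-numbered libraries deviated together (correlation of deviations from group means 0.117 to 0.534 over all pairs, every value above 0.1), so the numbers were taken to pair the libraries. Differently numbered libraries ranged from -0.449 to 0.284. In KO against WT treated their highest value exceeded the lowest same-numbered one (0.267). The reported fit left the pairing out, and the replicate block was an alternative. The scripts were tested on simulated data. For butyrate in WT, edgeR's test called 8.96% of genes with a simulated log2 change of 1, 54.7% at 2 and 86.4% at 4. The changed genes were drawn at random from all tested genes, each with its own spread, and no effect of the library number was simulated. MT2A, MT1X and MT1G varied more within groups than most genes and MTF1 less, so these rates are not theirs. A member that was not called may therefore still have changed. Members and gene lists were chosen with earlier results of these data known. Text names all members, SLC48A1, other metallothioneins, called list genes (at most 5 per list and comparison), SLC39A8, SLC39A14, GCLC, HMOX1, BBS2, NUP93 and the 5 genes most like the metallothionein sum on each of 2 measures. The result of 1 listed gene is not reported here.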

Additional observations from a re-analysis of the deposited data

How the results depend on the processing

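Log2 fold changes are given throughout. The number of members called moved from 0 to 1 for butyrate in WT with DESeq2 and with the replicate block (MTF1, 0.77 and 0.76), for KO against WT with butyrate with library size alone, DESeq2 and the replicate block (SLC39A10, 0.87, 0.76 and 0.75), and for butyrate in KO without the libraries numbered 1 (SLC39A10), and from 2 to 0 for untreated KO against WT without the libraries numbered 3. The replicate block changed no other call. With the replicate block the genotype difference of the metallothionein sum turned to 0.66 untreated and 0.0626 treated, that of MT1X to 1.58 and 0.55 and that of MT1G to 0.28 untreated. Without the libraries numbered 3 it was 2.31 and 1.53 for the sum, 3.39 and 2.03 for MT1X, 4.31 and 2.32 for MT1G and 1.26 and 0.94 for MT2A, and SLC39A10 with butyrate in WT was 0.0359. The MT1F difference between butyrate responses, near 0 in the reported fit, was 0.0270 with DESeq2's size factors in edgeR, 0.0796 with library size alone, 0.00893 with DESeq2, 0.18 with the replicate block, 0.40 without the libraries numbered 1 and 0.0647 without those numbered 3. Leaving out each library in turn, members called ranged from 0 to 1 for butyrate in KO and for KO against WT treated, from 1 to 3 for KO against WT untreated, and stayed at 0 for butyrate in WT and the difference of responses. The metallothionein sum then ranged from -2.27 (without treated WT library 3) to 5.45 (without untreated WT library 3) for butyrate in WT, 0.14 to 1.05 for butyrate in KO, -1.65 to 2.74 for KO against WT untreated, -2.62 to 1.77 treated and -4.83 to 2.89 for the difference of responses. For MT2A these ranges were -2.34 to 5.43 for butyrate in WT, -2.64 to 2.15 for KO against WT untreated, -3.06 to 1.34 treated and -4.67 to 3.11 for the difference. For MT1X they were -1.95 to 5.34 for butyrate in WT, -0.17 to 0.73 in KO, -0.58 to 3.55 untreated, -2.04 to 2.17 treated and -5.06 to 2.23. For MT1G they were -4.20 to 8.06, -0.28 to 0.83, -2.14 to 4.72, -3.62 to 2.99 and -7.67 to 4.59 in the same order, and for MT1F -0.42 to 3.29 for butyrate in WT and -1.84 to 1.86 for the difference. The cause of these changes was not tested. Over all genes, calls ranged from 36 to 1884 for butyrate in WT (372 reported), 48 to 2164 in KO (537), 1526 to 5217 for KO against WT untreated (3574), 1096 to 4612 treated (3009) and 0 to 86 for the difference (0). The remaining 199 values of the member counts and the sum and 700 values of single members were rated as unchanged in direction and call. That rating took a change from 2 to 3 members called as unchanged, as for KO against WT untreated without untreated WT library 3. It also took in the DESeq2 values of the sum, MT1X and MT2A, which had no p-value, so only their direction was compared. Low counts limit MT1E, MT1H and MT1M, for which no test was made.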
